A study of Homo sapiens with 12 samples.

Results

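The integrated stress response genes described here are ATF4, ATF3, DDIT3 (which encodes CHOP), TRIB3, PPP1R15A, CHAC1, DDIT4, SESN2, ASNS and SLC3A2. They were chosen by symbol, as 10 of the 43735 genes in the count table, because each is a known part or target of the ATF4 and CHOP pathway. RNA was sequenced from cultures of 2 human multiple myeloma cell lines, the glucocorticoid-sensitive MM1S and the glucocorticoid-resistant MM1R. Cultures were untreated or received withaferin A (WA), a steroidal lactone of the plant Withania somnifera that binds cysteines covalently, at 1 µM for 3 h. Each of the 4 groups held 3 cultures, at passages 16, 22 and 23 for MM1S and at passages 4, 6 and 7 for MM1R, and the cells were grown in RPMI-1640 with serum. The lines shared no passage number, so that line and passage cannot be told apart.

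The integrated stress response begins when a kinase that senses a stress phosphorylates the initiation factor eIF2. Most protein synthesis then slows, while the mRNA of the transcription factor ATF4 is translated better. ATF4 then activates genes of amino acid supply and redox balance, and with CHOP, genes that can end in cell death. Plasma cells and myeloma cells secrete much protein and are known for their reliance on the related unfolded protein response.

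The reads counted on genes numbered from 17625110 to 19368343 in a culture. Levels are given as CPM, the reads of a gene relative to library size, with library sizes scaled by edgeR's TMM method. A gene entered the tests if it passed edgeR's filter on low counts, which left 14085 genes and 9 of the 10 members, all but SESN2. The members took 0.0803% to 0.0835% of the reads in untreated MM1R, 0.164% to 0.396% in MM1R with WA, 0.069% to 0.147% in untreated MM1S and 0.137% to 0.313% in MM1S with WA. In RNA from whole cultures, more RNA per cell and more cells with the RNA cannot be told apart. Plasma cell markers (8 genes, all tested) summed to between 5650 and 5970 CPM in untreated MM1R, 4520 and 5130 CPM in MM1R with WA, 4740 and 5350 CPM in untreated MM1S and 4410 and 4750 CPM in MM1S with WA, whereas the fibroblast genes COL1A2 and COL3A1 and the epithelial gene KRT19 were listed at 0 in all 12 cultures. The summed fibroblast list (4 genes) lay between 3.84 and 4.68 CPM in untreated MM1R and 6.80 and 20.4 CPM with WA, led by COL1A1. The same list in MM1S lay between 2.19 and 4.04 CPM untreated and 3.73 and 8.34 CPM with WA. BCL6, a gene that B cells of germinal centres express, lay between 1.04 and 1.56 CPM in untreated MM1R and 4.21 and 14.1 CPM with WA, and between 0.723 and 2.28 CPM and 2.03 and 14.1 CPM in MM1S. Over all cultures the T cell, myeloid and epithelial lists (4 genes each) reached at most 11.8, 1.29 and 1.09 CPM. The part of these markers in the members' changes was not tested.

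A few cultures stood apart in the members. Untreated MM1S of passage 22 was the highest untreated MM1S culture for 10 of 10 members, as for 26.3% of all tested genes. MM1S with WA of passage 23 was highest in its group for 9 of 10 members (28.1% of all tested genes), and MM1R with WA of passage 7 for 9 of 10 (36.4%). Values without these cultures stand beside the members' results.

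Not every member was counted in full. SESN2 had 0 to 26 reads per culture, and a further entry for the same gene was listed at 0, as were further entries of its neighbours ATP5IF1 and MED18, which had at most 1 and 2 reads themselves. Reads that can be placed in both entries of a gene cannot be assigned to either. ASNS had 18 to 60 reads here, and a separate entry for a transcript that runs into it, CZ1P-ASNS, had 0 to 12 reads. SESN2 and ASNS may therefore be undercounted, and whether any share lost was equal in all cultures was not tested. DDIT3 overlaps MARS1 and MBD6 in the GENCODE annotation of GRCh37, and the strand setting of the counting is not given in the sources used here. MARS1 (listed as MARS) and MBD6 had log2 fold changes with WA of -0.07 and 0.34 in MM1R and of -0.06 and 0.21 in MM1S, with adjusted p-values from 0.31 to 0.88 by edgeR.

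Promoter letters are shown first because 6 of the 10 members hold a match to any of the 4 motifs searched here close to their start. Shares of all genes were taken for each motif and not for any of them together. Windows from 250 bases before to 50 bases after each start were taken from RefSeq, which had a window for 10 of 10 members, and were placed on GRCh37 by exact match. The first search was for the composite site of C/EBP and ATF factors, TGATGNAA or TTNCATCA on the other strand, on which ATF4 and CHOP bind with their partners. It is shown for 3 members, with the match in capitals:
ATF3: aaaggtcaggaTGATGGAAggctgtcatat
CHAC1: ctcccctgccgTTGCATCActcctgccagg
ASNS: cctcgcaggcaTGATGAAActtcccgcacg
These lines run 5′ to 3′ on the gene's strand. They lie at chr1:212738547-212738576 (plus strand, upstream of ATF3), chr15:41245449-41245478 (plus strand, in an exon of a GENCODE transcript) and chr7:97501770-97501799 (minus strand, in an exon of a GENCODE transcript). The match lay 191 to 184 bases before the RefSeq start in ATF3, 209 to 202 bases before it in CHAC1 and 68 to 61 bases before it in ASNS. SLC3A2 held the same motif after its start, which makes 4 of 10 members, against 4.46% of 27305 genes (3.62% of 35116 windows).

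The remaining searches were for the cyclic AMP response element TGACGTCA, which reads the same on both strands, for the AP-1 site TGACTCA and for the heat shock element, each on both strands. No printed match overlapped another. ATF3 and JUN family proteins bind the cyclic AMP and AP-1 sites, and heat shock factors the last. The matches are again in capitals:
PPP1R15A, cyclic AMP element: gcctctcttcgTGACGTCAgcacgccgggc
DDIT3, AP-1 site: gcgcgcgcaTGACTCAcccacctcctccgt
SLC3A2, AP-1 site: acgagggtgggTGACTCAgcgtcctccttc
Their positions are chr19:49375609-49375638 (plus strand, in an exon of a GENCODE transcript), chr12:57914518-57914547 (minus strand, in an intron) and chr11:62649123-62649152 (plus strand, in an intron). The cyclic AMP element was found in 1 of 10 members against 2.25% of genes, the AP-1 site in 2 of 10 against 6.05%, and the heat shock element in 0 of 10 against 0.608%. For ATF4, TRIB3, DDIT4 and SESN2 none of the 4 motifs occurred in these windows, which says only that those letters are absent there.

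WA raised 6 of the 9 tested members in MM1R and 3 in MM1S with an adjusted p under 0.05 (quasi-likelihood test of edgeR, Benjamini-Hochberg adjustment over all tested genes, 3 cultures in each group). In MM1R these were ATF3, DDIT3, PPP1R15A, DDIT4, CHAC1 and SLC3A2, and 14.0% of all tested genes were called and 7.55% were called as higher. In MM1S they were PPP1R15A, DDIT4 and SLC3A2, while 10.5% of all tested genes were called and 6.25% were called as higher. No member was called as lower in either line. The median log2 fold change of the 9 tested members was 2.10 in MM1R and 1.74 in MM1S, and that of all tested genes was 0.01 in both.

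WA and untreated cultures did not overlap, with WA higher, for 9 of 9 tested members in MM1R and for 5 of 9 in MM1S, which were ATF3, DDIT3, PPP1R15A, DDIT4 and SLC3A2. Of all tested genes, 17.3% and 16.4% were separated in this way. For ASNS in MM1R the separation rests on few reads, 34 in the nearest untreated culture and 35 in the nearest WA culture. Where passage entered the edgeR fit as a replicate block, 7 of 9 members were called in MM1R and 5 of 9 in MM1S. In this paired fit 29.1% and 24.1% of all tested genes were called. Without both MM1R cultures of passage 7, 2 members were called in MM1R, namely PPP1R15A and DDIT4, and 4.45% of all tested genes.

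**Figure D1:**
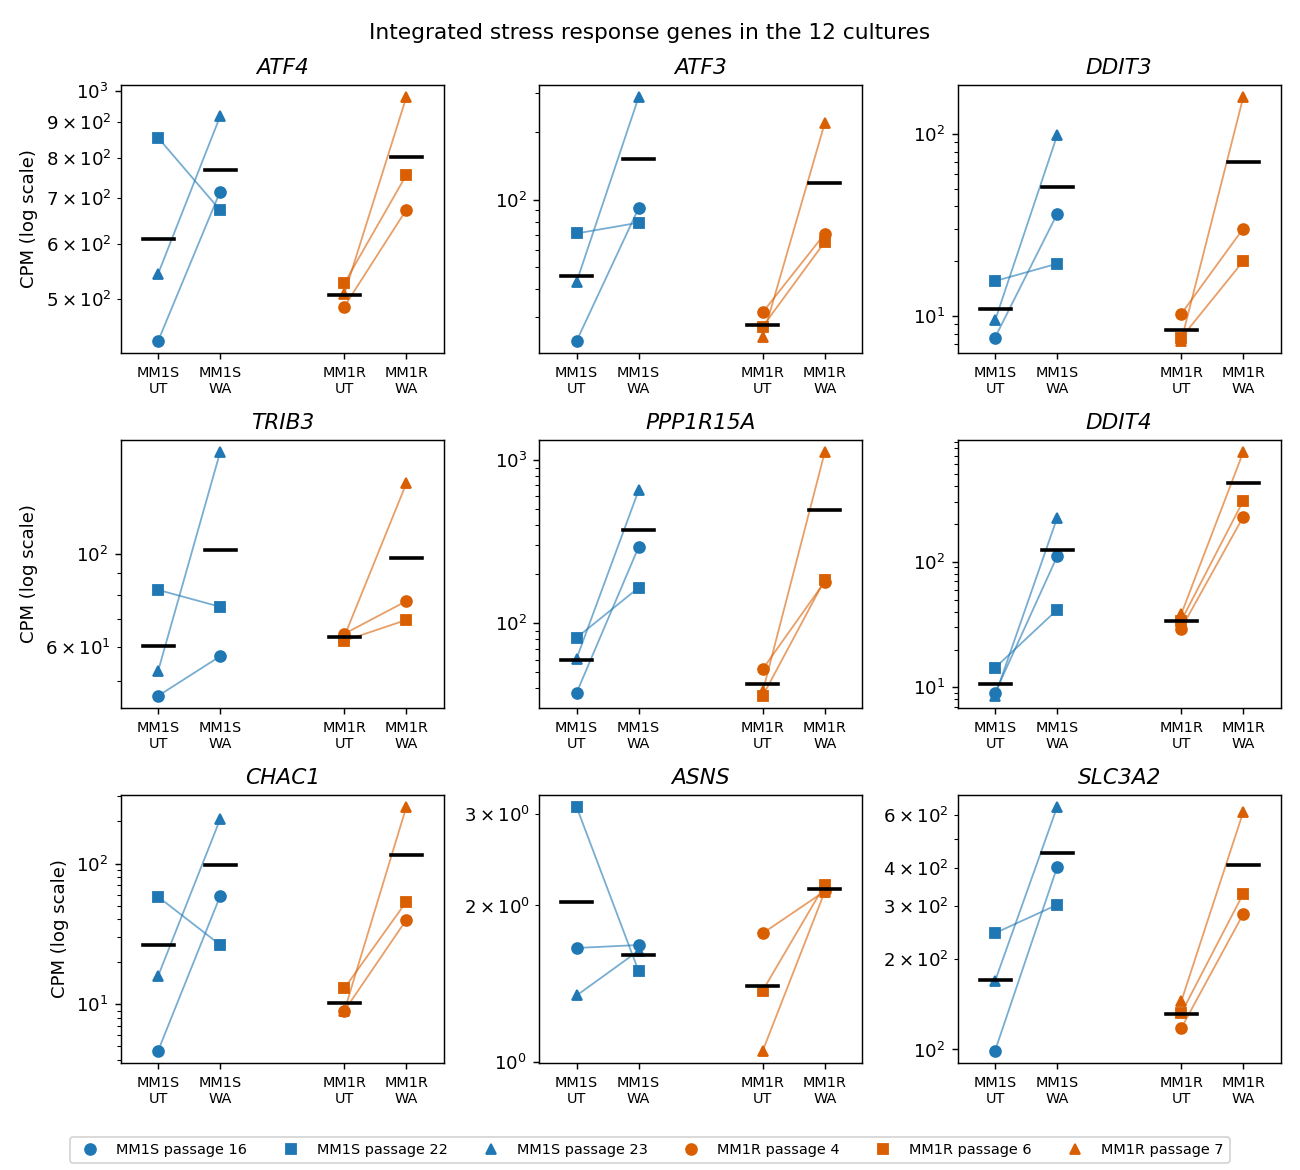
Level of the 9 tested members in each culture, in CPM on a log scale, with MM1S in blue and MM1R in orange, untreated (UT) and WA side by side. Markers are single cultures, thin lines join the 2 cultures of a passage and black bars are group means. In MM1R the 3 WA cultures lie above the 3 untreated cultures in each panel, with passage 7 highest in 8 of the 9, and in MM1S the untreated culture of passage 22 lies highest of its group in each panel.

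ATF4, the transcription factor at the head of the pathway, is controlled mainly by translation, so that its mRNA need not follow its protein. The gene lies at chr22:39915700-39918688 on the plus strand of GRCh37. In untreated MM1R its level was 487.5, 526.7 and 507.9 CPM at passages 4, 6 and 7, and with WA it was 672.9, 755.4 and 978.7 CPM. In untreated MM1S it was 434.9, 855.0 and 543.8 CPM at passages 16, 22 and 23, and with WA 715.0, 671.9 and 918.6 CPM. The MM1R groups were apart, whereas in MM1S the untreated culture of passage 22 was above 2 of the 3 WA cultures. The log2 fold change was 0.66 in MM1R (SE 0.21, adjusted p = 0.054 by edgeR) and 0.33 in MM1S (SE 0.21, adjusted p = 0.37), and neither passed. The replicate block gave 0.64 in MM1R with an adjusted p of 0.0145 by edgeR, and 0.0795 by DESeq2 with the same block. DESeq2 without a block, the fits with no filter or a stricter filter on low counts, the fit of the MM1R libraries alone and the fits that left out 1 of the MM1S cultures, untreated passage 16 (0.66), untreated passage 22 (0.66) or WA passage 16 (0.66), also called ATF4 in MM1R. The fit with no filter had an SE of 0.15. Without both MM1S cultures of passage 22 the change in MM1S was 0.74 (adjusted p = 0.048 by edgeR), and without untreated passage 22 or WA passage 23 alone it was 0.65 or 0.18. Without WA passage 7 the change in MM1R was 0.52.

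ATF3 encodes a stress-induced transcription factor of the same family that can repress as well as activate its targets. Its gene lies at chr1:212738676-212794119 on the plus strand. Untreated MM1R had 31.5, 27.2 and 24.4 CPM at passages 4, 6 and 7, and MM1R with WA had 70.6, 64.9 and 220.5 CPM. In MM1S the untreated cultures of passages 16, 22 and 23 had 23.4, 70.8 and 43.1 CPM and the WA cultures 91.8, 79.1 and 287.5 CPM. The groups did not overlap in either line, and the cultures of passages 7 and 23 were 3.12 and 3.13 times the next highest of their groups. ATF3 rose 4.28-fold in MM1R (log2 2.10, SE 0.55, adjusted p = 0.022 by edgeR). In MM1S the estimate was 3.34-fold (log2 1.74, SE 0.54, adjusted p = 0.057), which did not pass, and with the replicate block it was 1.63 (adjusted p = 0.017 by edgeR, 0.0543 by DESeq2). The call in MM1R was lost without untreated passage 6 (log2 2.07), without untreated passage 7 (2.01) and without WA passage 7 (1.32). In MM1S the estimate was 0.90 (adjusted p = 0.296 by edgeR) without WA passage 23, 1.42 without untreated passage 16 and 2.20 without untreated passage 22. There a call was gained without WA passage 16 (2.002), without WA passage 22 (2.05) and without MM1R with WA of passage 7 (1.73).

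DDIT3 encodes CHOP, the factor through which prolonged stress signalling leads towards cell death. The gene lies at chr12:57910371-57915520 on the minus strand. At passages 4, 6 and 7 of MM1R it went from 10.2, 7.57 and 7.28 CPM untreated to 30.2, 20.01 and 159.2 CPM with WA. At passages 16, 22 and 23 of MM1S it went from 7.61, 15.5 and 9.44 CPM to 36.3, 19.4 and 98.1 CPM. Each WA culture was above each untreated culture of its line, and WA passage 7 was 5.27 times the next highest MM1R culture. The rise in MM1R was 8.31-fold (log2 3.06, SE 0.72, adjusted p = 0.013 by edgeR). The estimate in MM1S was 4.72-fold (log2 2.24, SE 0.70, adjusted p = 0.057) and did not pass, whereas the replicate block gave 2.0018 with an adjusted p of 0.022 by edgeR and of 0.0653 by DESeq2. DDIT3 lost its call in MM1R without untreated passage 6 (log2 2.97), untreated passage 7 (2.96) or WA passage 7 (1.61). In MM1S it was 1.36 (adjusted p = 0.258 by edgeR) without WA passage 23 and 2.58 without untreated passage 22. It gained a call in MM1S without WA passage 22 (2.63) and without MM1R with WA of passage 6 (2.23) or passage 7 (2.23), by DESeq2 without a block and in the fit of the MM1S libraries alone.

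TRIB3 encodes a pseudokinase induced by ATF4 and CHOP that binds AKT and ATF4. Its gene lies at chr20:343479-378203 on the plus strand. Untreated MM1R cultures were close together at 64.5, 62.1 and 63.6 CPM, and the WA cultures of passages 4, 6 and 7 had 77.2, 69.7 and 147.0 CPM. In MM1S 46.0, 82.1 and 52.7 CPM at passages 16, 22 and 23 stood against 57.1, 74.8 and 174.5 CPM with WA. The WA cultures of passages 7 and 23 were 1.90 and 2.33 times the next of their groups, and the MM1S groups overlapped. The log2 fold changes of 0.63 in MM1R (SE 0.37, adjusted p = 0.29 by edgeR) and 0.76 in MM1S (SE 0.37, adjusted p = 0.22) did not pass. Without the WA cultures of passage 7 and passage 23, respectively, they were 0.24 and 0.13, and without untreated passage 22 the change in MM1S was 1.05.

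PPP1R15A encodes GADD34, the stress-induced subunit that directs a phosphatase to eIF2 and so ends the response. It lies at chr19:49375469-49379316 on the plus strand. Its untreated levels in MM1R were 52.5, 35.9 and 38.2 CPM at passages 4, 6 and 7, against 180.2, 185.0 and 1122 CPM with WA. Untreated MM1S had 37.5, 81.6 and 60.8 CPM at passages 16, 22 and 23, and MM1S with WA 293.9, 165.4 and 653.9 CPM. All WA cultures were at least 165.4 CPM and no untreated culture passed 81.6 CPM. PPP1R15A rose 11.7-fold in MM1R (log2 3.55, SE 0.68, adjusted p = 0.004 by edgeR) and 6.19-fold in MM1S (log2 2.63, SE 0.65, adjusted p = 0.022). WA passage 7 was 6.07 times the next MM1R culture, and without it the log2 change in MM1R was 2.14. The call in MM1R held in 12 of 12 fits that each left out 1 library. In MM1S it held in 8, and was lost without untreated passage 16 (2.38), 22 (2.91) or 23 (2.64) and without WA passage 23 (1.94).

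CHAC1 encodes an enzyme that breaks down glutathione and is a target of ATF4 with ATF3 and CHOP. The gene lies at chr15:41245160-41248710 on the plus strand. In untreated MM1R it stood at 8.95, 12.9 and 8.91 CPM at passages 4, 6 and 7, and with WA at 39.7, 53.5 and 252.6 CPM. In MM1S it moved from 4.66, 58.0 and 15.8 CPM at passages 16, 22 and 23 to 58.7, 26.4 and 206.9 CPM. Its untreated MM1S cultures thus differed by 12.4 times, and the untreated culture of passage 22 was above the WA culture of the same passage. CHAC1 rose 11.2-fold in MM1R (log2 3.49, SE 0.94, adjusted p = 0.025 by edgeR). In MM1S the estimate of 3.72-fold (log2 1.90, SE 0.87, adjusted p = 0.19) did not pass. Without untreated passage 22 it was 3.24 (adjusted p = 0.0723 by edgeR), without WA passage 23 it was 0.70, and without both cultures of passage 22 it was 3.69 (adjusted p = 0.0336). The call in MM1R was lost without untreated passage 4 (3.39), 6 (3.67) or 7 (3.39) and without WA passage 7 (2.21).

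DDIT4 encodes REDD1, an inhibitor of the growth-promoting kinase complex mTORC1, and is also known as a glucocorticoid and hypoxia target. It lies at chr10:74033678-74035794 on the plus strand. MM1R had 29.4, 33.8 and 38.2 CPM untreated at passages 4, 6 and 7 and 228.0, 305.9 and 747.0 CPM with WA. MM1S had 9.01, 14.3 and 8.55 CPM untreated at passages 16, 22 and 23 and 110.1, 41.4 and 223.2 CPM with WA. None of the 4 groups overlapped any neighbour in the order of their means, which ran from untreated MM1S through untreated MM1R and MM1S with WA to MM1R with WA. DDIT4 rose 12.6-fold in MM1R (log2 3.66, SE 0.54, adjusted p = 0.00069 by edgeR) and 11.8-fold in MM1S (log2 3.56, SE 0.55, adjusted p = 0.0011). Both calls held in 12 of 12 fits that each left out 1 library. Without both MM1R cultures of passage 7 the change in MM1R was 3.10 (adjusted p = 0.0109 by edgeR). In MM1S it was 2.83 without WA passage 23 and 3.83 without untreated passage 22.

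SESN2 encodes sestrin 2, a leucine sensor that restrains mTORC1. The gene lies at chr1:28586029-28609002 on the plus strand. Its reads were 1, 0 and 0 in untreated MM1R at passages 4, 6 and 7 and 3, 8 and 26 with WA. In MM1S they were 1, 6 and 0 untreated at passages 16, 22 and 23 and 3, 4 and 21 with WA. Most of the WA reads in each line thus came from the culture of passage 7 or 23. Summed over 3 cultures, WA against untreated MM1R was 37 reads against 1, a ratio per library size of 37.3 with an exact 95% interval from 6.28 to 1510. In MM1S it was 28 reads against 7, a ratio of 4.07 with an exact 95% interval from 1.74 to 11. These intervals cover counting error only, not the spread between cultures. SESN2 did not pass the filter of the fit of all 12 libraries. With 1 library left out the filter kept it in 10 of 12 fits, all but those without MM1R WA passage 7 or MM1S WA passage 23. Its entry thus rested on the WA cultures where it was highest, so that its calls there are no independent support. Over these fits edgeR called it in MM1R in 6 (adjusted p from 0.03 to 0.134 over all 10) and in MM1S in 0.

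The last pair of members serves amino acid supply. ASNS, asparagine synthetase, lies at chr7:97480989-97501854 on the minus strand and is a classical ATF4 target. Its untreated levels in MM1R were 1.77, 1.37 and 1.05 CPM at passages 4, 6 and 7, and its levels with WA 2.13, 2.19 and 2.13 CPM. In MM1S it had 1.66, 3.10 and 1.34 CPM untreated at passages 16, 22 and 23 and 1.68, 1.49 and 1.64 CPM with WA. The MM1R groups were apart and the MM1S groups overlapped, with untreated passage 22 the highest of the 12 cultures. The MM1R separation rests on few reads, 34, 25 and 18 untreated against 40, 39 and 35 with WA at passages 4, 6 and 7. The log2 fold changes were 0.62 in MM1R (SE 0.32, adjusted p = 0.23 by edgeR) and -0.34 in MM1S (SE 0.32, adjusted p = 0.57), and the latter was 0.10 without untreated passage 22.

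SLC3A2 encodes CD98hc, the heavy chain that carries the transporters SLC7A5 and SLC7A11 to the cell surface. It lies at chr11:62623476-62656352 on the plus strand. Untreated MM1R had 117.6, 131.8 and 144.3 CPM at passages 4, 6 and 7, and MM1R with WA had 281.5, 328.6 and 613.6 CPM. In MM1S 99.0, 243.2 and 168.6 CPM at passages 16, 22 and 23 stood against 402.1, 301.8 and 637.1 CPM. WA cultures lay above untreated cultures in each line, with untreated passage 22 coming nearest to the WA cultures. SLC3A2 rose 3.11-fold in MM1R (log2 1.64, SE 0.34, adjusted p = 0.007 by edgeR) and 2.63-fold in MM1S (log2 1.39, SE 0.34, adjusted p = 0.02). In MM1R its call held in 12 of 12 fits that each left out 1 library, but the adjusted p was 0.0755 (log2 1.31) without both cultures of passage 7. In MM1S the call was lost without untreated passage 16 (1.12), untreated passage 23 (1.38) or WA passage 23 (1.05), and in the fit of the MM1S libraries alone (1.38, adjusted p = 0.0508). Without WA passage 7 the change in MM1R was 1.24, and without untreated passage 22 that in MM1S was 1.74.

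**Figure D2:**
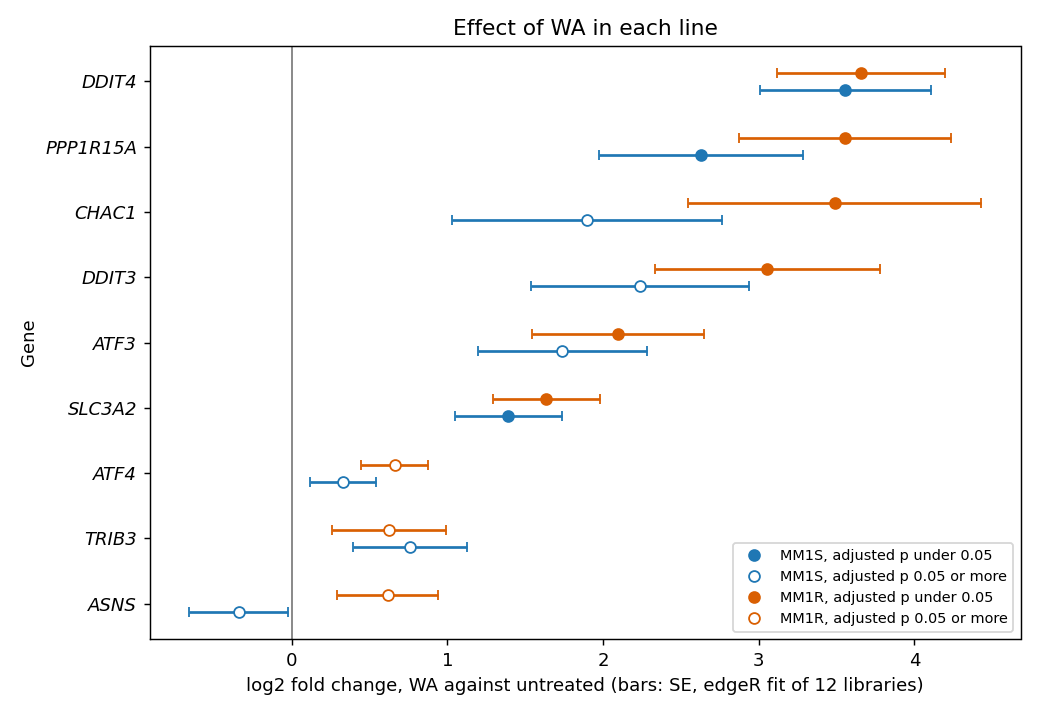
Log2 fold change of WA against untreated for the 9 tested members (x axis) in MM1S (blue) and MM1R (orange), with bars of 1 SE from the edgeR fit of 12 libraries. Filled points passed an adjusted p of 0.05. The estimates run from 0.62 for ASNS to 3.66 for DDIT4 in MM1R and from -0.34 for ASNS to 3.56 for DDIT4 in MM1S.

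Within pairs of cultures of the same passage, the size of the response ranged widely between passages of a line. Changes within a pair are log2 differences of CPM with a pseudocount of 0.5. With a pseudocount of 2, SESN2 was at 0.65 in the MM1S pair of passage 23 and 0.84 in the MM1R pair of passage 7, against 1.72 and 2.06. ASNS was at 0.44 in the MM1R pair of passage 7, against 0.76. Both genes had few reads. All 10 members were higher with WA in each of the 3 MM1R pairs, as 29.0% of all tested genes were. In MM1S, 5 of 10 members were higher in each pair (29.3% of all tested genes), and the other 5, ATF4, TRIB3, CHAC1, ASNS and SESN2, were lower in the pair of passage 22. The median change of the 10 members was 1.20, 1.28 and 2.62 in the MM1R pairs (passages 4, 6 and 7). In the MM1S pairs (passages 16, 22 and 23) it was 1.98, 0.01 and 2.32.

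The pair of passage 7 had the largest change of the MM1R pairs for 10 of 10 members. Among the MM1S pairs, that of passage 23 was largest for 9 of 10 and that of passage 22 smallest for 10 of 10. No share of all genes was taken for these counts, and the members share the same cultures. The check of pairing, given with the processing, did not tell the pair of passage 22 from cultures of different passage. CHAC1 spanned the widest range, from -1.12 in the pair of passage 22 to 4.75 in that of passage 7. PPP1R15A and DDIT4 were higher with WA by at least 1.01 and 1.503 in each of the 6 pairs, and by up to 4.86 and 4.63. ATF4 moved by 0.46 to 0.95 in the MM1R pairs and by 0.72, -0.35 and 0.76 in those of MM1S.

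Among 12321 genes with a mean of at least 1 CPM, the median size of the change within a pair was 0.304 for passage 7, against 0.213 to 0.251 for the other 5 pairs. The share of these genes that changed by more than 1 was 8.18% for passage 7, 3.63% and 3.39% for the other MM1R pairs, and 5.23%, 2.34% and 4.56% in MM1S at passages 16, 22 and 23. The pairs with the largest and smallest median change of the members, those of passages 7 and 22, were thus also those with the most and the fewest genes past this size. The part of a culture's state in these differences was not tested.

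**Figure D3:**
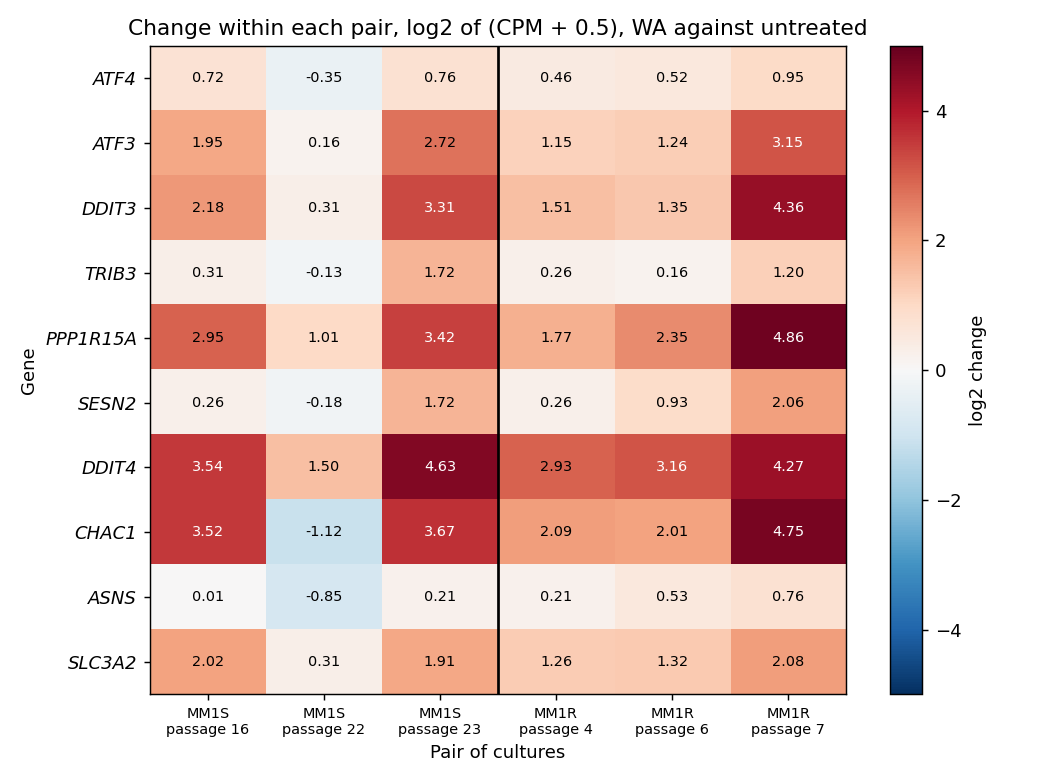
Change of each member within each pair of cultures of the same passage, as log2 of (CPM + 0.5) with WA against untreated, printed in each cell and coloured red for higher and blue for lower with WA. The column of MM1S passage 22 holds 5 negative values, down to -1.12 for CHAC1, and the column of MM1R passage 7 values from 0.76 to 4.86.

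The lines could also differ in their response, which was tested as an interaction in the same edgeR fit. No member and none of the 14085 tested genes (0.0%) passed an adjusted p of 0.05, and each member's adjusted p was 1.0. At an unadjusted p under 0.05 there were 97 genes and 0 members, and DESeq2 called 1 gene (0.0071%), which was no member. Of the 9 estimates, 8 had a positive sign, that is a larger change in MM1R, and TRIB3 was at -0.13. The difference was 1.59 for CHAC1 (95% interval from -1.04 to 4.22), 0.92 for PPP1R15A (-0.96 to 2.81), 0.82 for DDIT3 (-1.26 to 2.89) and 0.10 for DDIT4 (-1.43 to 1.63), on the log2 scale. ASNS, at 0.96 (-0.02 to 1.93), had the smallest unadjusted p of the members (0.053). Without MM1R with WA of passage 7 the estimates of DDIT3 and PPP1R15A were -0.62 and -0.48. A fit without a filter on low counts called CHAC1 (1.58, SE 0.21) and PPP1R15A (0.92, SE 0.20) among 11 genes, where the SEs with the filter were 1.22 and 0.88.

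Before treatment, no member differed between the lines by the study's limits, an adjusted p of 0.01 together with an at least 2-fold difference. Of all tested genes 2.97% did (1.48% higher in MM1R), and 0 of 9 tested members is near that share. DESeq2 called 4.05% of the genes and 0 members. DDIT4 was nearest, with 29.4 to 38.2 CPM in untreated MM1R against 8.55 to 14.3 CPM in untreated MM1S, and these ranges did not overlap. It was 3.18-fold higher in MM1R (log2 1.67, SE 0.53, adjusted p = 0.055 by edgeR), and was called in the fit of the untreated libraries alone (1.68, adjusted p = 0.00128) and without a filter on low counts (1.66, SE 0.16). DDIT4 was the only member with an unadjusted p under 0.05. The estimates of 7 members were negative, from -1.35 for CHAC1 (SE 0.90, adjusted p = 0.37) to -0.27 for ATF4 (SE 0.21, adjusted p = 0.46). The estimates moved with untreated MM1S of passage 22, and without that culture CHAC1 was at -0.0036 and ATF4 at 0.05.

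Levels can be set between genes only per length, here as mean CPM per kilobase of exon in GENCODE's GRCh37 annotation. The length is that of the exons of all annotated transcripts of a gene, merged. It can exceed the length of the mRNA expressed, and the ranks between genes depend on it. ATF4 was the most abundant member in each group, with 194 CPM per kilobase in untreated MM1R, 307 in MM1R with WA, 234 in untreated MM1S and 294 in MM1S with WA. In MM1R with WA, DDIT4 (207) and PPP1R15A (144) followed, then SLC3A2 (63.8), CHAC1 (56.2), DDIT3 (53.4), TRIB3 (29.8) and ATF3 (29.7). In untreated MM1R these had 16.4, 12.3, 20.5, 5.01, 6.40, 19.3 and 6.93 CPM per kilobase, so that SLC3A2 and TRIB3 led after ATF4. In MM1S with WA, PPP1R15A (108) stood next to ATF4, ahead of SLC3A2 (69.9) and DDIT4 (60.7).

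The order of the 4 groups differed by gene. MM1R with WA had the highest mean for ATF4, DDIT3, PPP1R15A, CHAC1, DDIT4, SESN2 and ASNS, and MM1S with WA for ATF3, TRIB3 and SLC3A2. The WA groups of the lines overlapped for 8 of 10 members, the exceptions being DDIT4 and ASNS, and untreated MM1R was lowest for 8 of 10. No share of all tested genes was taken for these counts, so that they describe the members only.

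Across the 12 cultures, most members followed the same course. The correlation of a member's log2 CPM with the mean of the other tested members was 0.97 for PPP1R15A, DDIT3 and SLC3A2, 0.96 for CHAC1, 0.95 for ATF3, 0.92 for ATF4, 0.84 for TRIB3, 0.80 for DDIT4 and 0.39 for ASNS (Pearson's r, n = 12 cultures, which share treatment, line and library). DDIT4 ranked below the other strongly changed genes, and its untreated groups did not overlap between lines. Whether this bears on its correlation was not tested. The mean of the 9 centred members lay from -0.97 to -0.84 in untreated MM1R and from -1.38 to -0.08 in untreated MM1S, the highest of these being passage 22. With WA it was 0.45, 0.50 and 1.96 at passages 4, 6 and 7 and 0.53, 0.01 and 1.60 at passages 16, 22 and 23, so that the untreated and WA cultures of passage 22 stood close together.

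The genes outside the list with the pattern most like this mean, of 12312 ranked, were RNF41 (r = 0.98), VEGFA (0.98), WBP2 (0.97), JUN (0.97) and FOSL2 (0.97). RNF41 encodes an E3 ubiquitin ligase, VEGFA an angiogenic growth factor, and JUN and FOSL2 subunits of AP-1. JUN had 51.4, 34.0 and 24.8 CPM in untreated MM1R at passages 4, 6 and 7 and 120, 95 and 380 CPM with WA. FOSL2 had log2 fold changes of 1.66 in MM1R and 1.46 in MM1S. These genes were chosen for their likeness over the same cultures, so that their course is a description only.

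A further 83 genes of the pathway were followed in 8 groups, of which 77 were tested. CEBPD, NUPR1, PCK2, STC2, GDF15 and FGF21 had too few reads. In MM1R 17 rose and 4 fell, with a median log2 fold change of 0.14, and in MM1S 15 rose and 2 fell, with a median of 0.13. The shares of all tested genes that rose and fell were 7.55% and 6.46% in MM1R and 6.25% and 4.23% in MM1S. Between the untreated lines 1 of the 77 differed, against 2.97% of all tested genes. It was the death receptor gene TNFRSF10B, which was higher in MM1R.

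Upstream of ATF4, 13 genes for the kinases, eIF2, its exchange factor eIF2B and the constitutive phosphatase subunit were tested. EIF2AK2, the kinase activated by double-stranded RNA, rose by 0.59 in MM1R (adjusted p = 0.0028 by edgeR) and 0.66 in MM1S (adjusted p = 0.0015), from between 85.0 and 102 CPM to between 118 and 156 CPM. The eIF2B subunit genes EIF2B4 and EIF2B5 fell by 0.57 and 0.46 in MM1R and by 0.45 and 0.41 in MM1S. EIF2S1 fell by 0.57 in MM1R and was at -0.49 in MM1S (adjusted p = 0.063 by edgeR). EIF2AK3, the kinase PERK of the endoplasmic reticulum, had changes of 0.56 and 0.48 (adjusted p = 0.056 and 0.11) in MM1R and MM1S, and PPP1R15B, the constitutive counterpart of PPP1R15A, of 0.09 and -0.04.

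Of 8 other bZIP factors, JUN rose by 2.43 (adjusted p = 0.0081 by edgeR) and CEBPB by 1.19 (adjusted p = 0.041) in MM1R. None passed in MM1S, where JUN was at 1.42 (adjusted p = 0.092) and CEBPB at 0.55 (adjusted p = 0.37). CEBPG was at 0.53 in MM1R (adjusted p = 0.056 by edgeR) and 0.42 in MM1S. Among 6 paralogs of the members, SESN3 rose by 2.71 in MM1R (adjusted p = 0.0017 by edgeR) and by 2.37 in MM1S (adjusted p = 0.0042). SESN3, unlike SESN2, was well counted, with 58.2, 28.4 and 28.0 CPM in untreated MM1S at passages 16, 22 and 23 and 284, 88.7 and 221 CPM with WA. Its highest WA culture of MM1S was thus passage 16 and not 23. The paralogs TRIB1 and DDIT4L were at 0.34 and -0.39 in MM1R (adjusted p = 0.38 and 0.66 by edgeR).

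Amino acid supply was represented by 3 groups. Of 7 transporter genes, SLC7A11, SLC7A5 and SLC7A1 rose in both lines, by 2.25, 1.15 and 0.75 in MM1R and by 1.68, 1.05 and 0.67 in MM1S. SLC7A11, the cystine importer and partner of SLC3A2, had 7.35, 30 and 16.3 CPM in untreated MM1S at passages 16, 22 and 23, so that passage 22 was again highest. Of 10 genes of serine, one-carbon and amino acid synthesis, CTH and ALDH1L2 rose in both lines (1.42 and 1.38 in MM1R, 0.90 and 1.16 in MM1S). MTHFD2 rose in MM1R (0.79) and was at 0.66 in MM1S (adjusted p = 0.064 by edgeR). Of 8 aminoacyl-tRNA synthetase genes 0 were called in either line by edgeR, with medians of 0.15 and 0.13 and GARS highest at 0.58 (adjusted p = 0.068) in MM1R, followed by AARS (0.31) and TARS (0.30).

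Of 11 stress output and cell death genes, 5 rose and 1 fell in MM1R and 6 rose in MM1S. ADM2, a peptide hormone gene, rose by 2.63 and 1.98 in MM1R and MM1S, BBC3, which encodes the BH3-only protein PUMA, by 1.75 and 1.85, VEGFA by 1.19 and 0.97, and KLHL24 by 0.98 and 0.85. PMAIP1 (NOXA) rose in MM1R (1.35) and was at 0.89 in MM1S, while GADD45A (1.06) and TNFRSF10B (0.87) rose in MM1S and were at 0.46 and 0.0032 in MM1R. The difference between the lines passed for none of these. ERO1A fell by 0.50 in MM1R and was at -0.33 in MM1S (adjusted p = 0.15 by edgeR).

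The IRE1 and ATF6 arms of the unfolded protein response had 2 of 14 genes called in each line. That is near the share of all tested genes called, which was 14.0% in MM1R and 10.5% in MM1S. These were the co-chaperone genes DNAJB9 (0.90 in MM1R, 0.62 in MM1S) and DNAJC3 (0.52 and 0.50). HSPA5, the main chaperone of the endoplasmic reticulum, was at 0.14 and 0.18 (adjusted p = 0.48 and 0.38 by edgeR), CRELD2 at 0.31 and 0.14, XBP1 at -0.24 and -0.11 and HERPUD1 at -0.09 and -0.06.

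The cultures that stood apart in the members did so in parts of these groups. Untreated MM1S of passage 22 was highest in its group for 50 of the 77 genes (64.9%, against 26.3% of all tested genes), among them 7 of 7 transporters, 8 of 8 tRNA synthetases and 9 of 10 synthesis genes. MM1S with WA of passage 23 was highest for 48 of 77 (62.3%, against 28.1%) and MM1R with WA of passage 7 for 49 of 77 (63.6%, against 36.4%). For the IRE1 and ATF6 genes untreated passage 22 was highest in 8 of 14 (57.1%), WA passage 7 in 4 of 14 and WA passage 23 in 5 of 14. Of the 7 transporters, WA passage 7 was highest for 3 (42.9%).

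**Figure D4:**
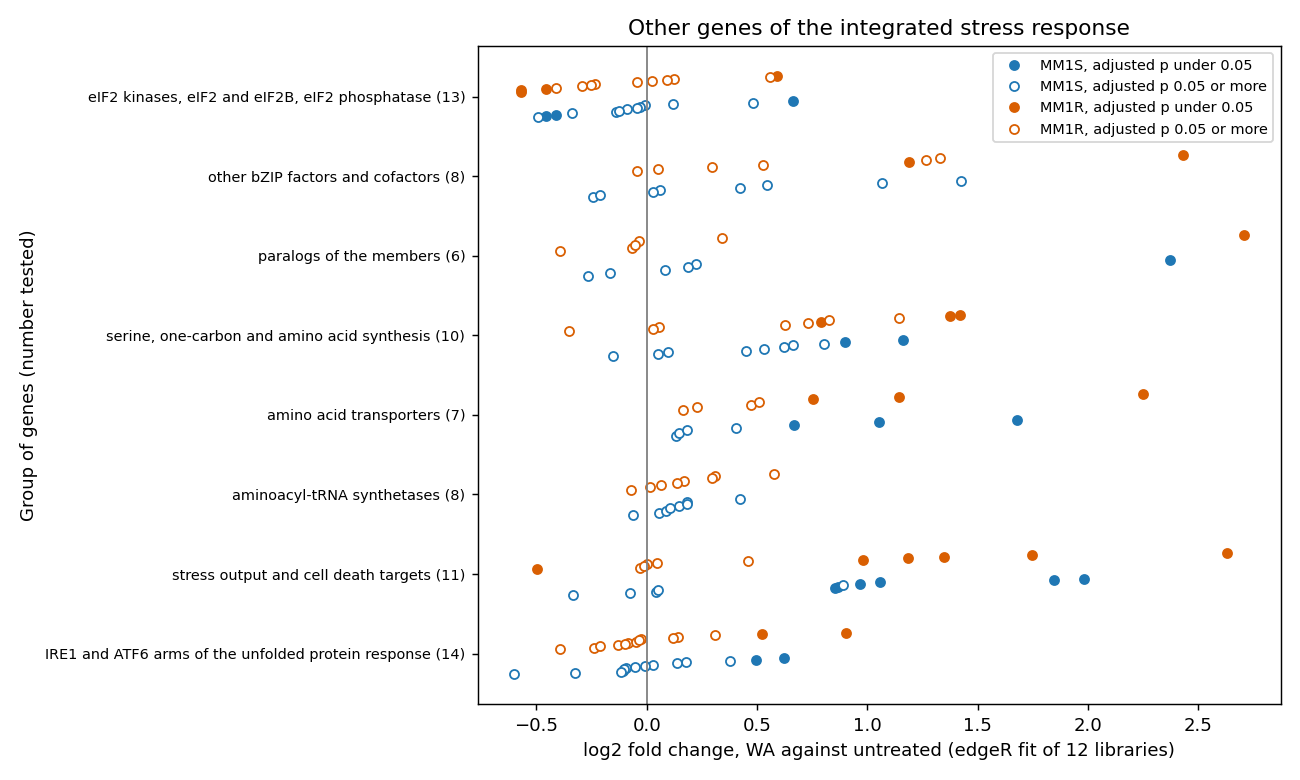
Log2 fold change of WA against untreated (x axis) for the 77 other tested genes of the pathway, by group with the number tested, in MM1S (blue, lower row of each group) and MM1R (orange, upper row). Filled points passed an adjusted p of 0.05 by edgeR. The tRNA synthetases hold no filled point, and the largest changes are those of SESN3 (2.71), ADM2 (2.63) and JUN (2.43) in MM1R.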

How the data were processed

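RNA of 12 cultures was sequenced on BGISEQ-500 as 2 x 50 base pairs, per the study's methods with 3 biologically independent samples per group. The authors mapped reads to hg19 with STAR 2.7.3a after FastQC 0.11.5 and deposited raw counts per gene; the annotation and strand setting are not given in the sources used here. Groups and passage numbers came from the labels. A normalized table that the authors deposited was not used.

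Counts were tested in R 4.3.3 with edgeR 4.0.16 (filterByExpr with a minimum count of 10, TMM, quasi-likelihood test, 1 fit of 12 libraries in 4 groups, Benjamini-Hochberg adjustment over 14085 genes). WA was called at an adjusted p of 0.05, and the untreated lines at 0.01 with a log2 fold change of at least 1 in size, the study's limits. SE is the size of the log2 fold change over the root of the F statistic. DESeq2 1.42.0, other filters and scaling, a replicate block, and libraries or passages left out were alternatives. Those leaving out both cultures of a passage were chosen after seeing the data. The test was checked on simulated data. Plots and summaries used Python 3.11.15, pandas 2.3.3 and matplotlib 3.10.9. Gene positions are from GENCODE v44 on GRCh37.

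Pairing by passage was checked through the correlation of deviations from the group means, which was 0.744, 0.262 and 0.491 in MM1S (passages 16, 22 and 23) and 0.427, 0.222 and 0.254 in MM1R (passages 4, 6 and 7). Cultures of different passage reached 0.419 in MM1S (untreated passage 23 with WA passage 22) and 0.106 in MM1R. Untreated passage 22 with WA passage 23 gave 0.347. Both MM1S values exceed the 0.262 of passage 22, so the check does not tell that pair from cultures of different passage. All same-passage values were above 0.1, a limit that some cultures of different passage passed as well. The fit with passage as a block takes the pairs as given and is quoted where it changes a call. The calls themselves come from the fit with no passage term. No 2 cultures of a group agreed within sampling noise. The members, the pathway and marker lists and the alternatives were chosen with earlier results of these data known. Named genes are the members, the 3 genes with the smallest p in MM1R per pathway group, and the 5 genes with the highest correlation with the members' mean. Further pathway genes were named after their values were seen: EIF2S1, EIF2AK3, PPP1R15B, KLHL24, PMAIP1, GADD45A, TNFRSF10B, ERO1A, HSPA5, XBP1 and HERPUD1. The levels of 1 further marker list are not reported here beyond BCL6, which was named after its values were seen.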

Additional observations from a re-analysis of the deposited data

How the results depend on the processing

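For WA in MM1R, the count of members called was 6 (14.0% of all tested genes called), and it was 2 without both MM1R cultures of passage 7 (4.45%). With 1 library left out it was 3 to 8 (6.57% to 16.7%), or 3 to 7 without SESN2. The filter kept SESN2 in 10 of those 12 fits, and edgeR called it in 6. For WA in MM1S the count was 3 (10.5% of all tested genes called). It was 7 without a filter on low counts (7.15%) and 5 with passage number as replicate block in edgeR (24.1%). Without both MM1S cultures of passage 16 (4.83%) or of passage 23 (2.58%) it was 1, and without both of passage 22 (5.94%) it was 6. It was 5 without both MM1R cultures of passage 7 (12.2%), and 1 to 5 with 1 library left out (5.03% to 11.2%). It was 1 without untreated passage 16 (7.29%), untreated passage 23 (5.03%) or WA passage 23 (5.65%). The counts of all genes called were 1973 and 1476 in MM1R and MM1S, 4094 and 3399 with the replicate block, and 950 to 2396 and 726 to 1621 with 1 library left out. Members called for the difference between lines were 0, and 2 without a filter on low counts (0.0415% of all genes in that fit). Between the untreated lines they were 0 (2.97% of all tested genes called), 2 without a filter (3.06%) and 1 in the fit of the untreated libraries alone (2.66%). Calls without a filter rest on a smaller SE for members such as ATF3 in MM1R, 0.15 against 0.55 with the filter. The SE of ASNS in MM1R was not smaller (0.35 against 0.32). The replicate block in DESeq2 called 6 and 3 members and changed no call of the edgeR fit without a block, and in edgeR it changed only the calls of ATF4 in MM1R and of ATF3 and DDIT3 in MM1S.

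For WA in MM1S, ASNS changed sign without untreated passage 22 (0.10) and without both cultures of passage 22 (0.14), and ran from -0.57 to 0.10 with 1 library left out. The uncalled differences between lines changed sign most. Without both MM1S cultures of passage 22 they were -0.0779 for ATF4, -0.41 for ATF3, -0.59 for DDIT4, -0.20 for CHAC1 and -0.32 for SLC3A2, and without both MM1R cultures of passage 7 they were -0.50 for ATF3, -0.72 for DDIT3, -0.55 for PPP1R15A, -0.45 for DDIT4 and -0.0729 for SLC3A2. With 1 library left out the lowest values were -0.42 for ATF3, -0.62 for DDIT3, -0.48 for PPP1R15A, -0.55 for DDIT4 and -0.14 for SLC3A2, and the highest were 1.20, 1.70, 1.62, 0.82 and 0.59. Further such values were -0.10 for ATF3, -0.17 and -0.32 for DDIT4 and -0.10 for SLC3A2. TRIB3 ran from -0.52 to 0.49 (0.03, 0.01 and 0.08 in between), and was 0.58, 0.0224 and 0.0629 without passage 23 of MM1S and passages 4 and 6 of MM1R. Between the untreated lines, ATF4 was 0.0503 without untreated passage 22 and 0.0504 without both cultures of passage 22, with a range from -0.47 to 0.05 over libraries left out. TRIB3 was -0.0892 or -0.01 without untreated passage 16 or 23 (range to 0.36) and -0.089 or -0.0153 without both cultures of those passages. The cause was not tested for any of these. With 3 cultures per group the WA cultures of MM1R differed up to 7.95-fold (DDIT3), and SESN2 was too low for the filter of the fit of 12 libraries.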
